A study of Mus musculus with 62 samples.

Results

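Nrep, Cyfip2, Lrtm1 and Mb are 4 of the 47643 gene symbols in a table of RNA levels from the tibialis anterior, the shin muscle of mice. They were chosen because they are not encoded by mitochondria and were far lower in the muscle of mice bearing one melanoma line at 4, 6 and 8 weeks. The fall itself is therefore what put them here, and it is given below as a description with no test. Values are TPM, the share of a library's transcripts that belongs to a gene, corrected for gene length and scaled to a fixed total. All 4 genes passed the filter of a mean of at least 1 TPM, as did 11107 of the 23019 genes with any value above 0.

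The mice were female and 2 months old. The CAC mice had received cachectic melanoma cells and the NCAC mice melanoma cells of a non-cachectic kind, while the Con mice were mock injected. Muscle was taken 2, 4, 6 or 8 weeks later, which makes 12 groups of treatment and week. CAC at 8 weeks has 7 libraries and every other group 5. The sample labels give the strain as C57BL6/J, whereas the series' own description gives NCI Ath/nude mice, which lack a thymus and hence most T cells, so the strain behind these values is not settled. The protocol text calls the libraries biological replicates. It also refers to an LLC cell injection, so it may have been carried over from other work. Replicate numbers only name libraries.

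Cachexia is a loss of muscle and fat tissue seen in many patients with cancer. Mb encodes myoglobin, the haem protein that stores oxygen in muscle fibres and hands it to mitochondria, and it is one of the abundant transcripts of working muscle. Nrep (neuronal regeneration related protein, also P311) encodes a small protein known from regenerating neurons and from wound healing, where it has been tied to TGF-beta production. Cyfip2 encodes a subunit of the WAVE complex, which relays the small GTPase Rac to the Arp2/3 complex and so to branched actin, and it also binds the RNA-binding protein FMRP. Lrtm1 encodes a membrane protein with leucine-rich repeats whose role in muscle is little known.

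The start-site regions of Lrtm1 and Mb are shown because both genes were low in the same CAC groups but differed in how their libraries varied. Each is the 250 bases before a transcription start in RefSeq, build GRCm38.p6, which is the same assembly as mm10, written 5′ to 3′ on the gene's strand with motif matches in capitals. Both strands were searched for CANNTG (the E box bound by MyoD-type factors) and CCACCC (the core of the CCAC box). Also searched were AAGGTCA (the element of oestrogen-related receptors) and a loose form of the MEF2 site. The MEF2 strings allowed any base at the middle positions, and other forms of that site were not searched.
Lrtm1, chr14:29017958-29018207, plus strand: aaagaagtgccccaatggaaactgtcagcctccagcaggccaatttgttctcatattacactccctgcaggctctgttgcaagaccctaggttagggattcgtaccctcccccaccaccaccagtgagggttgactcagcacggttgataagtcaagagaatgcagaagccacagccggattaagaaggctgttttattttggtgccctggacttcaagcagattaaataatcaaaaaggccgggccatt
Mb, chr15:77022788-77023037, minus strand: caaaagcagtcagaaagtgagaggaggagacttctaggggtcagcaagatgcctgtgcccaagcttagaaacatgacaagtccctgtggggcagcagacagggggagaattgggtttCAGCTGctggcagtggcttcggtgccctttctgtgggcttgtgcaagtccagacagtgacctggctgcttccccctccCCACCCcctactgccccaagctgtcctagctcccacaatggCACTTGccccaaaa

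In the Mb window the capitals mark 2 E boxes, CAGCTG and CACTTG, and 1 CCACCC core, at positions -55 to -50 from the start. The Lrtm1 window held none of the 4 motifs in the forms searched. An E box is found in 66.2% of 32851 promoter windows of this length and a CCACCC core in 28.1%, so a match to either is common. The MEF2 strings searched are found in 10.1% and the receptor element in 4.08%. A match is only a string of letters in the window, and no match says nothing about binding elsewhere. Myoglobin has several annotated starts, of which this window precedes 1, and which start was used is not given. Another Mb window, chr15:77050669-77050918, held 2 different E boxes, CAACTG and CAGTTG, and 0 CCACCC cores. A further one, chr15:77022728-77022977, overlaps the printed window and held 3 E boxes and 1 CCACCC core.

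Mitochondrially encoded genes took a median of 46.03% to 48.7% of TPM in the Con groups and 40.7% and 36.8% in CAC at 6 and 8 weeks, and estimated depth was 46600000 to 54500000 reads per library. Counts of marker genes called higher or lower by limma (adjusted p under 0.05) are given here as deposited and then after rescaling each library by its median ratio to the average library, beside 69.4% of all genes higher and 5.09% lower as deposited and 24.9% and 24.2% rescaled. The summed level of 8 markers of mature muscle fibres was 67072 to 104980 TPM in Con and 55599 to 102029 TPM in CAC at 8 weeks, with 3 of 8 genes higher and 2 lower, and 0 higher and 4 lower rescaled. Over the same groups, 8 macrophage markers summed to 40.1 to 82.3 TPM and 84.8 to 236 TPM, with 7 of 7 tested genes higher, and 4 rescaled. Likewise, 8 fat cell markers summed to 540 to 620 TPM and 900 to 1198 TPM, with 6 of 7 higher, and 3 rescaled. Smooth muscle and pericyte markers summed to 167 to 256 TPM and 341 to 444 TPM, with 7 of 8 higher, and 5 higher and 1 lower rescaled. Endothelial markers summed to 115 to 181 TPM and 214 to 283 TPM, with 7 of 8 higher and 1 lower, and 3 higher and 1 lower rescaled. Tendon markers went the other way, with 4 of 7 tested genes lower and 1 higher, and 5 lower and 0 higher rescaled. The 8 lymphocyte markers summed to at most 2.00 TPM in Con and 0.484 TPM in CAC at 8 weeks, and none was high enough to be tested. The 8 melanoma markers summed to 4.92 to 6.33 TPM in Con and 6.09 to 14.5 TPM in CAC at 8 weeks. At 6 weeks they summed to 5.01 to 6.49 TPM and 7.26 to 9.85 TPM. Of these 8, Tyr, Tyrp1 and Mc1r stayed under 0.1 TPM in every library. The 8 liver markers summed to 0.814 to 2.06 TPM in Con and 2.86 to 10.8 TPM in CAC at 8 weeks. In Con at 2 weeks their sum ran from 6.25 to 2397 TPM. Fibroblast markers summed to 205 to 379 TPM in Con and 291 to 656 TPM in CAC at 8 weeks. Of 7, 2 were higher, and 1 higher and 1 lower rescaled. Those of satellite cells summed to 19.7 to 41.8 and 38.6 to 101 TPM, with 2 of 5 higher, and 1 higher, 1 lower rescaled. Schwann cell and nerve markers summed to 23.5 to 126 and 46.5 to 102 TPM, with 4 of 7 higher, and 1 rescaled. Red blood cell markers summed to 324 to 1169 and 147 to 14746 TPM, with 0 of 5 called. The part of these cell types in the levels of the 4 genes was not tested.

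Libraries that stood apart for one gene often did so for others. CAC replicate 3 at 8 weeks had the highest Nrep, Lrtm1 and Cyfip2 of its group, and its 3430 TPM of Mb lay in the middle. CAC replicates 2 and 4 at 4 weeks had the lowest Nrep, Lrtm1 and Cyfip2 of theirs. NCAC replicate 3 at 8 weeks, with 24.4 TPM of Nrep, 21.6 TPM of Lrtm1 and 2.64 TPM of Cyfip2, was the lowest of its group for these 3 genes, while its Mb, at 7408 TPM, was not. The metallothionein Mt2, a metal-binding protein of stress and glucocorticoid responses that was picked after its values were seen, stood apart in these libraries but not only in them. It was at 32.3 TPM in CAC replicate 3 at 8 weeks and between 1925 and 4596 TPM in the other 6. At 4 weeks it stood at 1072 and 1087 TPM in CAC replicates 2 and 4 and between 9.63 and 67.4 TPM in the other 3. In NCAC at 8 weeks it was 45.7 TPM in replicate 3 and at most 6.06 TPM in the other 4. Con replicate 5 at 4 weeks held a similar 41.7 TPM of Mt2, the highest of its group. Its Cyfip2, at 2.62 TPM, was the lowest of that group, but its Lrtm1, at 46.3 TPM, was the highest. The alpha globin Hba-a1 was at 3252 TPM in CAC replicate 3 of 8 weeks, and the other 6 held between 46.6 and 462 TPM. The part that these differences play in the levels of the 4 genes was not tested.

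Mb runs from 77015487 to 77050670 on chromosome 15, minus strand, in GENCODE M21. Its 5 Con libraries held 7023, 9083, 7739, 6477 and 7993 TPM at 8 weeks. The 7 CAC libraries of that week held 1888, 4067, 3430, 3590, 2278, 1692 and 4201 TPM. The highest CAC library thus lay below the lowest Con library. The means were 3021 ± 1047 TPM in CAC (SD, n = 7) and 7663 ± 993 TPM in Con (n = 5), a level 2.54 times lower. At 6 weeks the 5 CAC libraries held 1734, 3389, 4249, 3507 and 3976 TPM, and Con held 5137 to 8597 TPM. The groups again did not overlap, and the ratio of means was 2.18. At 4 weeks CAC libraries were spread from 3425 to 9255 TPM around a mean of 6561 ± 2197 TPM, against 8959 ± 1840 TPM in Con, and the groups overlapped. Over all weeks, the 12 CAC libraries of weeks 6 and 8 held 1692 to 4249 TPM and the 40 Con and NCAC libraries 5137 to 11757 TPM.

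Lrtm1 lies at 29018208 to 29033645 on chromosome 14, plus strand, inside the gene Cacna2d3 but on the opposite strand and with no shared exon bases. Its 5 Con libraries held 37.5, 25.01, 47.7, 36.2 and 26.1 TPM at 8 weeks. The 7 CAC libraries held 3.05, 3.25, 22.96, 8.085, 18.9, 2.56 and 6.23 TPM. Replicates 3 and 5 stood above the other 5 but still below every Con library of that week. The mean was 9.28 ± 8.27 TPM in CAC (n = 7) and 34.5 ± 9.32 TPM in Con (n = 5), 3.72 times lower. At 6 weeks the CAC libraries held 5.98, 6.76, 11.5, 8.12 and 12.6 TPM, all below the 23.7 to 36.6 TPM of Con, and the ratio of means was 3.41. At 4 weeks the CAC libraries held 27.9, 5.70, 25.7, 14.4 and 35.7 TPM. Replicates 2 and 4 lay far below the lowest Con library of that week, at 26.3 TPM, replicate 3 just below it, and the other 2 above it.

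Nrep is annotated at 33437019 to 33464029 on chromosome 18, minus strand. Its 5 Con libraries held 69.2, 71.4, 63.5, 79.4 and 61.8 TPM at 8 weeks. The 7 CAC libraries held 3.18, 11.3, 72.9, 22.4, 34.2, 3.52 and 11.8 TPM. Replicate 3 lay inside the Con range, and the other 6 lay below it. The mean was 22.8 ± 24.7 TPM in CAC and 69.1 ± 6.98 TPM in Con, 3.03 times lower, and 4.80 times lower without CAC replicate 3. No other library moved a ratio of Con to CAC means for any of the 4 genes at 4, 6 or 8 weeks by over 1.5 times when it was left out. At 6 weeks the CAC libraries held 3.70, 12.2, 18.4, 20.2 and 24.2 TPM against 42.4 to 82.6 TPM in Con, a ratio of 4.13. At 4 weeks the CAC libraries held 57.8, 15.6, 63.3, 32.4 and 95.7 TPM. The low libraries were again replicates 2 and 4.

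Cyfip2 runs from 46193850 to 46312859 on chromosome 11, minus strand. It was the weakest of the 4 genes per length and the most variable among mice without CAC cells. Its 5 Con libraries held 15.2, 21.05, 23.5, 4.47 and 28.9 TPM at 8 weeks. The 7 CAC libraries held 1.88, 0.362, 3.94, 1.36, 1.28, 1.93 and 0.797 TPM. Con replicate 4 stood far below the other Con libraries, yet above every CAC library. The mean was 1.65 ± 1.15 TPM in CAC and 18.6 ± 9.32 TPM in Con, 11.3 times lower. At 6 weeks CAC held 0.910, 0.722, 1.66, 1.62 and 1.46 TPM and Con 2.39 to 16.7 TPM, with a ratio of 7.27. At 4 weeks CAC held 3.32, 0.326, 1.135, 0.447 and 3.725 TPM against 2.62 to 13.7 TPM in Con, a ratio of 3.82, and the groups overlapped. At 4, 6 and 8 weeks the CAC means were 1.79, 1.28 and 1.65 TPM and the Con means 6.83, 9.28 and 18.6 TPM. The ratio to Con thus grew mainly with the Con mean. The lowest Cyfip2 value corresponds to about 47.6 estimated reads.

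**Figure D1:**
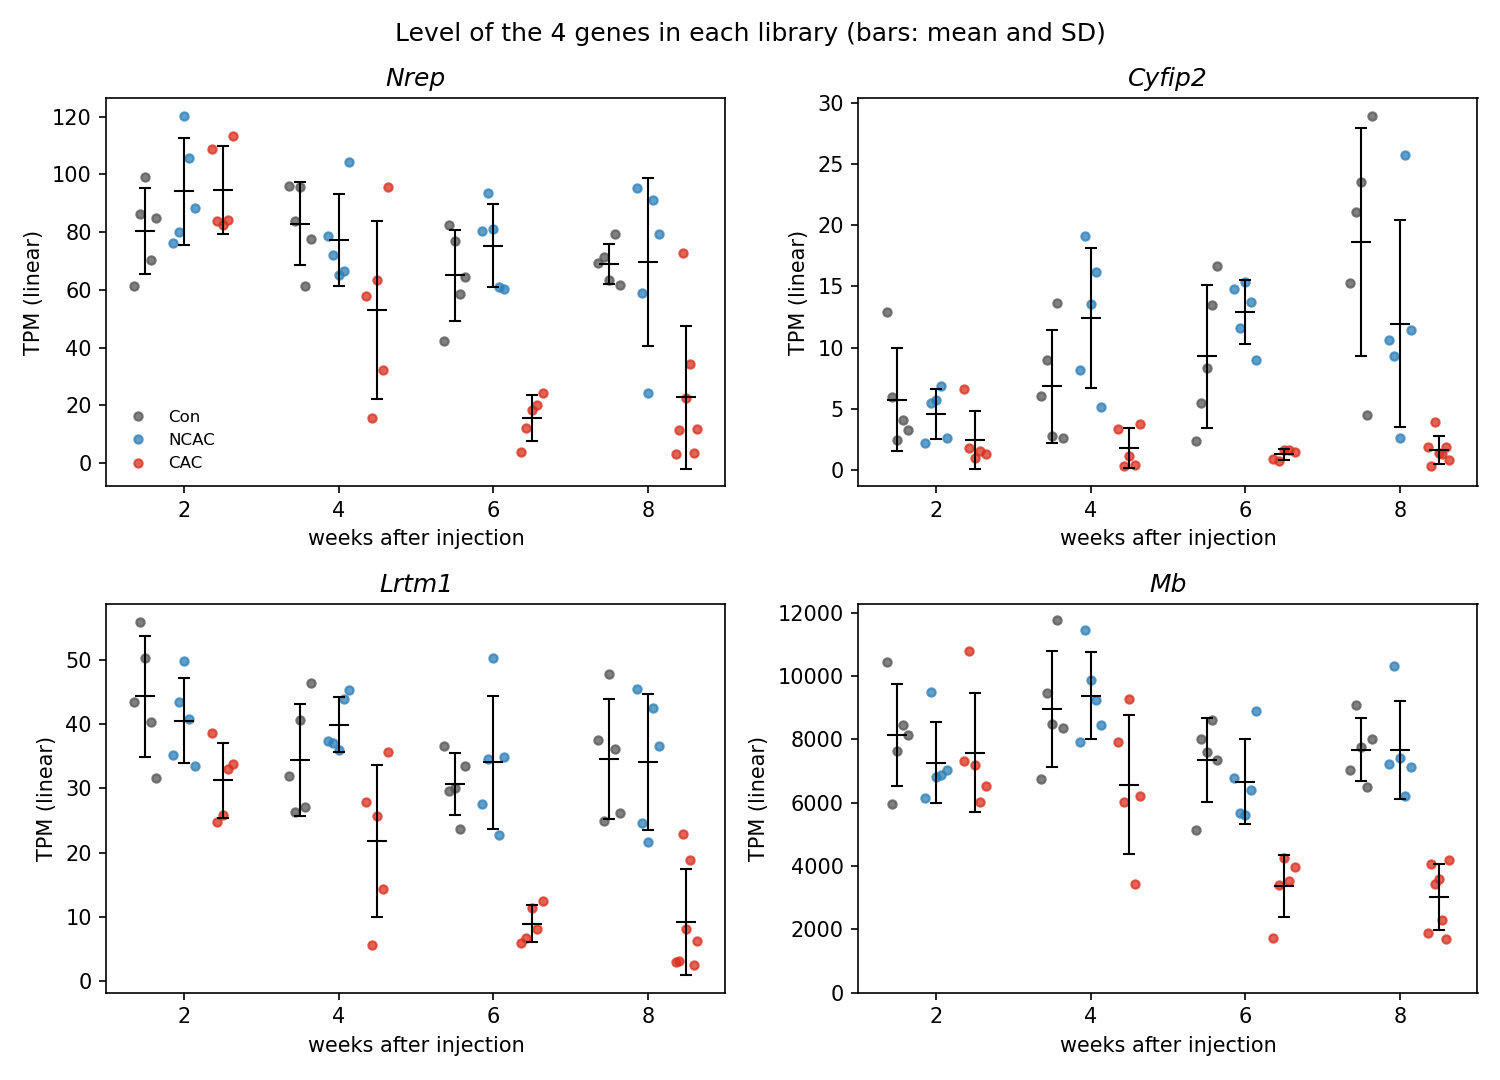
TPM of Nrep, Cyfip2, Lrtm1 and Mb on linear axes against weeks after injection, with 1 point per library, grey for Con, blue for NCAC and red for CAC, and bars for the mean and SD. For Mb every CAC point of weeks 6 and 8 lies below all Con and NCAC points, while for the other 3 genes CAC replicate 3 at 8 weeks lies above the lowest NCAC library of that week.

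At 4 weeks the ranges of CAC and Con overlapped for all 4 genes, and limma called 0.045% of all 11107 genes tested lower and 0.891% higher at an adjusted p under 0.05. At 6 weeks the ranges were apart for all 4, beside 3.26% of all genes called lower and 60.7% higher. At 8 weeks they were apart for Cyfip2, Lrtm1 and Mb, and after rescaling for Nrep too, beside 5.09% called lower and 69.4% higher. These shares are of limma calls, and the share of all genes with ranges apart is not given here. Since the genes were also chosen on these columns, nothing is read from these counts. TPM adds to a fixed total in each library, and the median gene was higher in CAC than in Con by 0.38 on the log2 scale at 6 weeks and by 0.46 at 8 weeks. After rescaling each library by the median ratio to the average library, 18.1% of genes were called lower and 16.9% higher at 6 weeks, and 24.2% and 24.9% at 8 weeks.

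On the log2(TPM + 1) scale the differences between CAC and Con at 4, 6 and 8 weeks were -0.85, -2.15 and -2.21 for Nrep and -1.48, -1.97 and -2.79 for Cyfip2. They were -0.82, -1.70 and -2.13 for Lrtm1 and -0.50, -1.17 and -1.42 for Mb. Rescaling made the 8-week differences larger, at -2.67 for Nrep, -3.12 for Cyfip2, -2.57 for Lrtm1 and -1.94 for Mb. The same CAC libraries set against NCAC gave ratios of means of 1.46, 4.78 and 3.06 for Nrep, 6.95, 10.1 and 7.25 for Cyfip2, 1.83, 3.79 and 3.68 for Lrtm1 and 1.43, 1.98 and 2.53 for Mb at 4, 6 and 8 weeks. Without CAC replicate 3 the 8-week ratio for Nrep was 4.84, and no other library moved one of these ratios by over 1.5 times. Both sets of values share the CAC libraries. At 8 weeks the ranges of CAC and NCAC were apart for Mb and overlapped for Nrep, Cyfip2 and Lrtm1. Of all genes, limma called 5.04% lower and 67% higher in that comparison, which is not a share of genes with ranges apart. The lowest NCAC library for these 3 genes was replicate 3, at 24.4, 2.64 and 21.6 TPM, and the highest CAC library replicate 3, at 72.9, 3.94 and 22.96 TPM. For Nrep, CAC replicate 5 also lay above that NCAC library, at 34.2 TPM. Averaged over the 3 weeks, in CAC against Con, Cyfip2 ranked 3 and Nrep 4 from the bottom of 11107 genes, Lrtm1 ranked 9 and Mb ranked 37. Ranks 1 and 2 were taken by Actc1, the cardiac and fetal actin, and Ighm, an immunoglobulin heavy chain. By log2 difference Mb was therefore low among all genes but behind the other 3. By the difference in TPM, with mitochondrially encoded genes left out, it ranked 1 from the bottom at 4 weeks and 2 at 6 and at 8 weeks. Where Mb was not called its rank was extreme too. It ranked 1 in CAC against Con at 2 weeks and 2 in NCAC against Con with weeks pooled. In NCAC against Con at 4 weeks it ranked 11092, near the top. Such a rank is therefore not particular to the late CAC groups. The genes next to Mb in the ranking by log2 difference were Amigo3 just below, at -1.04, and Irf5 just above, at -1.03, beside -1.03 for Mb.

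Differences at 2 weeks and between NCAC and Con were not themselves used to choose the genes. They were tested with limma over all 11107 genes. Con and NCAC of the later weeks were, however, the groups CAC was compared with in the choice. NCAC against Con, pooled or in those later weeks, is therefore not fully independent of the choice. At 2 weeks none of the 4 genes was called between CAC and Con, where 0.054% of all genes were called. Cyfip2 held 6.61, 1.77, 1.00, 1.58 and 1.31 TPM in CAC and 12.9, 5.99, 2.48, 4.13 and 3.30 TPM in Con. In 4 of 5 CAC libraries it lay below every Con library, and the difference was -0.98 on the log2 scale (SE 0.46, unadjusted p = 0.038, limma adjusted p = 0.567). Lrtm1 differed by -0.48 (SE 0.34, limma adjusted p = 0.588), with 5 of 5 CAC libraries below the Con mean of 44.3 TPM. Nrep differed by 0.24 (SE 0.44, adjusted p = 0.815) and Mb by -0.11 (SE 0.22, adjusted p = 0.831). Between CAC and NCAC at 2 weeks 0.063% of all genes were called and again none of the 4. That comparison shares its CAC libraries with the one before.

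NCAC and Con muscle differed in the 4 genes by less than the spread between libraries. Over the 4 weeks pooled, Nrep averaged 79.1 ± 20.8 TPM in NCAC and 74.4 ± 14.6 TPM in Con (SD, n = 20 each). Cyfip2 averaged 10.5 ± 6.04 TPM and 10.1 ± 7.80 TPM. Lrtm1 averaged 37.2 ± 8.32 TPM and 35.98 ± 9.19 TPM, and Mb 7738 ± 1646 TPM and 8021 ± 1492 TPM. The log2 differences were 0.06 (SE 0.22) for Nrep, 0.16 (SE 0.23) for Cyfip2, 0.05 (SE 0.17) for Lrtm1 and -0.06 (SE 0.11) for Mb. None of the 4 was called, and limma called 0% of all genes here, with 232 at an unadjusted p under 0.05. In the weekly comparisons of NCAC with Con the differences for Cyfip2 were -0.18, 0.86, 0.64 and -0.66 at 2, 4, 6 and 8 weeks (SE 0.46 each). Those of the other 3 genes lay between -0.16 and 0.24, and no weekly difference of the 4 genes was called. Of all genes, limma called 0.162% at 2 weeks, 0% at 4 and at 6 weeks (143 and 118 genes at an unadjusted p under 0.05) and 0.009% at 8 weeks.

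**Figure D2:**
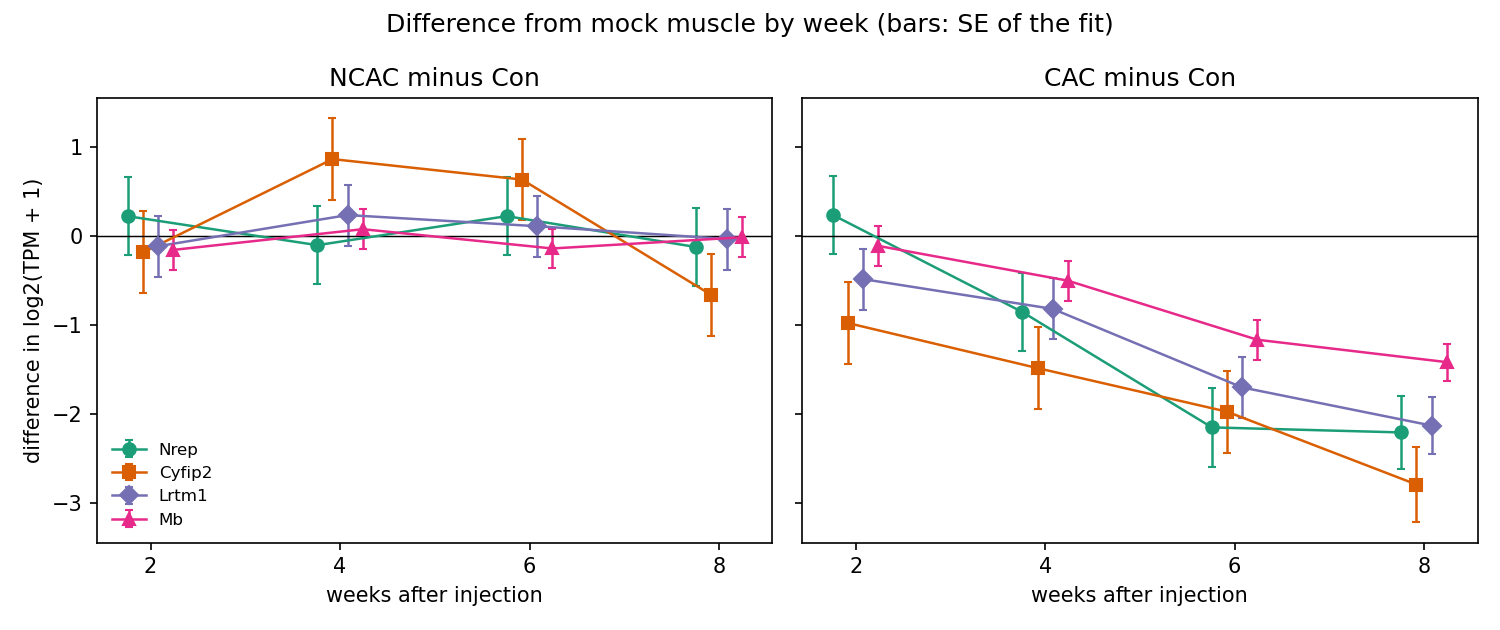
Difference from Con in log2(TPM + 1) against weeks after injection for NCAC (left) and CAC (right), 1 line per gene, with bars for the SE of the fit. NCAC lines stay between -0.66 and 0.86, and CAC lines reach -2.79 for Cyfip2 and -1.42 for Mb at 8 weeks.

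The mean of Cyfip2 was higher in later weeks in mice without CAC cells, by a difference that did not pass the test. In Con its mean was 5.76 ± 4.197 TPM at 2 weeks, 6.83 ± 4.64 TPM at 4, 9.28 ± 5.81 TPM at 6 and 18.6 ± 9.32 TPM at 8 weeks (SD, n = 5 each). The 8-week level was above the 2-week level by 1.52 on the log2 scale (SE 0.46, unadjusted p = 0.0017, limma adjusted p = 0.377), with 4 of 5 libraries above the 2-week mean. In this comparison 0.27% of all genes were called and none of the 4. Without Con replicate 4 of 8 weeks Cyfip2 was called, at 1.93 (limma adjusted p = 0.0481). Con and NCAC at 8 weeks are also groups the genes were chosen against, so a high level there is not independent of the choice. In NCAC the mean was 4.58 ± 2.06 TPM at 2 weeks, 12.4 ± 5.71 TPM at 4, 12.9 ± 2.63 TPM at 6 and 11.95 ± 8.46 TPM at 8 weeks. The 8-week level was above the 2-week level by 1.04 (SE 0.46, unadjusted p = 0.0277, limma adjusted p = 0.956), where limma called 0% of all genes, with 546 at an unadjusted p under 0.05. The change over time differed between NCAC and Con by -0.48 (SE 0.65, unadjusted p = 0.465). Nrep, Lrtm1 and Mb differed between 8 and 2 weeks by -0.20, -0.36 and -0.07 in Con and by -0.55, -0.28 and 0.07 in NCAC, and none was called.

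When the 12 groups are ordered by mean level, most neighbours differ by less than the larger of their 2 SDs. For Mb the exception was the step from CAC at 4 weeks to CAC at 6 weeks, and for Lrtm1 the step from CAC at 4 weeks to CAC at 8 weeks. Nrep ran from 94.6 ± 15.1 TPM in CAC at 2 weeks, its highest mean, to 15.7 ± 8.00 TPM in CAC at 6 weeks, its lowest, with no single step beyond its SD. Cyfip2 ran from Con at 8 weeks down to CAC at 6 weeks, 1.28 ± 0.431 TPM, with all 4 CAC groups at the bottom and no single step beyond its SD.

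The 4 genes did not all vary together. Across the 62 libraries the Pearson correlation of log2(TPM + 1) was 0.93 between Nrep and Lrtm1, 0.78 between Nrep and Mb and 0.74 between Lrtm1 and Mb. For Cyfip2 it was 0.51 with Nrep, 0.58 with Lrtm1 and 0.55 with Mb. These values hold the group difference the genes were chosen for, and all libraries share the TPM scaling. In the 40 libraries without CAC cells, Nrep and Lrtm1 kept 0.51, whereas Mb gave -0.14 with Nrep and -0.20 with Lrtm1, and Cyfip2 lay between -0.15 and 0.21 with the other 3. In the 12 CAC libraries of weeks 6 and 8, Nrep and Lrtm1 gave 0.89, and 0.84 without CAC replicate 3. In these 12 libraries Nrep and Mb gave 0.62 (0.68 without that replicate) and Lrtm1 and Mb 0.36 (also 0.36 without it). Cyfip2 gave 0.37 with Nrep, 0.45 with Lrtm1 and -0.17 with Mb, and -0.07, 0.11 and -0.36 without it. These are descriptions across libraries and carry no p.

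The gene whose pattern was most like that of Mb was Ckmt2, the mitochondrial creatine kinase of muscle, with r = 0.962 over 62 libraries and 0.909 over the 40 without CAC cells. It was followed by Mdh1, a malate dehydrogenase (0.925), Cox7a1, a muscle subunit of cytochrome oxidase (0.916), Mtfp1 (0.897) and Dlat, a subunit of pyruvate dehydrogenase (0.886). Ckmt2 held 2558 ± 602 TPM in Con and 965 ± 287 TPM in CAC at 8 weeks. For Nrep the nearest were Pde4a, a cAMP phosphodiesterase (0.936), Hacd1, an enzyme of very long fatty acid synthesis needed by muscle (0.933), Dynll2 (0.928), Trim7 (0.925) and Itgb1bp2 (0.924). Without CAC libraries Hacd1 kept 0.772 with Nrep and Pde4a 0.374. Of the genes ranked, Lrtm1 had Ndufs1, a subunit of respiratory complex I, nearest (0.911), then Pde4a (0.908), Sh3kbp1 (0.903), Dynll2 (0.902) and Frzb (0.887). All of these lay below its 0.927 with Nrep. Ndufs1 gave 0.319 with Lrtm1 without CAC libraries. Cyfip2 had no gene above 0.722, its value with Il15, a cytokine made by muscle, followed by Chac2 (0.703), Fabp3 (0.672), Grb14 (0.662) and Adk (0.651). Fabp3, the fatty acid binding protein of oxidative muscle, gave -0.576 with Cyfip2 within the 12 late CAC libraries.

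**Figure D3:**
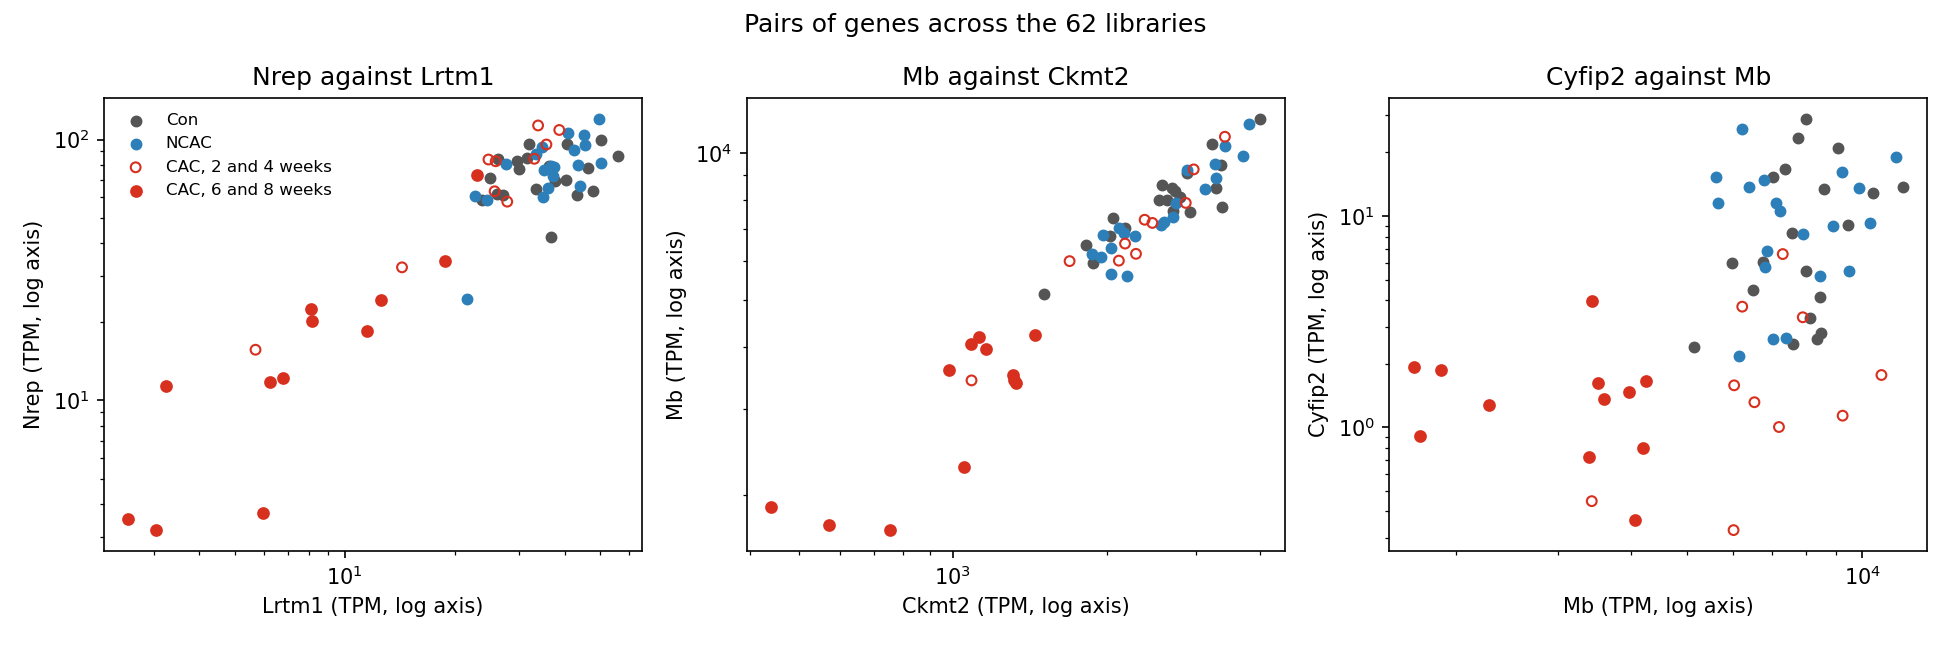
TPM on log axes for Nrep against Lrtm1, Mb against Ckmt2 and Cyfip2 against Mb, with 1 point per library, grey for Con, blue for NCAC, open red for CAC at 2 and 4 weeks and filled red for CAC at 6 and 8 weeks. Nrep with Lrtm1 and Mb with Ckmt2 form narrow bands (r = 0.927 and 0.962 over 62 libraries), while Cyfip2 with Mb forms a broad cloud (r = 0.545).

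The nearest relatives of the 4 genes, where one is known, had values of both directions. Cyfip1, the other subunit that can fill the place of Cyfip2 in the WAVE complex, was at 6.47 ± 0.550 TPM in CAC and 4.38 ± 0.646 TPM in Con at 8 weeks. As deposited it rose by 0.48 (SE 0.08, limma adjusted p = 1.26e-06), whereas after rescaling the difference was 0.04 (adjusted p = 0.566). Cygb, the cytoglobin of fibroblast-like cells, was at 24.8 ± 2.96 TPM against 14.5 ± 2.68 TPM. It rose by 0.74 (SE 0.14, limma adjusted p = 1.31e-05) as deposited, and the rescaled difference was 0.24 (adjusted p = 0.0758). Lrtm2 fell from 5.46 ± 3.25 TPM to 1.93 ± 1.49 TPM, by 1.15 on the log2 scale (SE 0.36, limma adjusted p = 0.00439), and also fell after rescaling (adjusted p = 0.00123). At 8 weeks CAC muscle thus held more Cyfip1 than Cyfip2 per length, and Con muscle more Cyfip2 than Cyfip1.

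**Figure D4:**
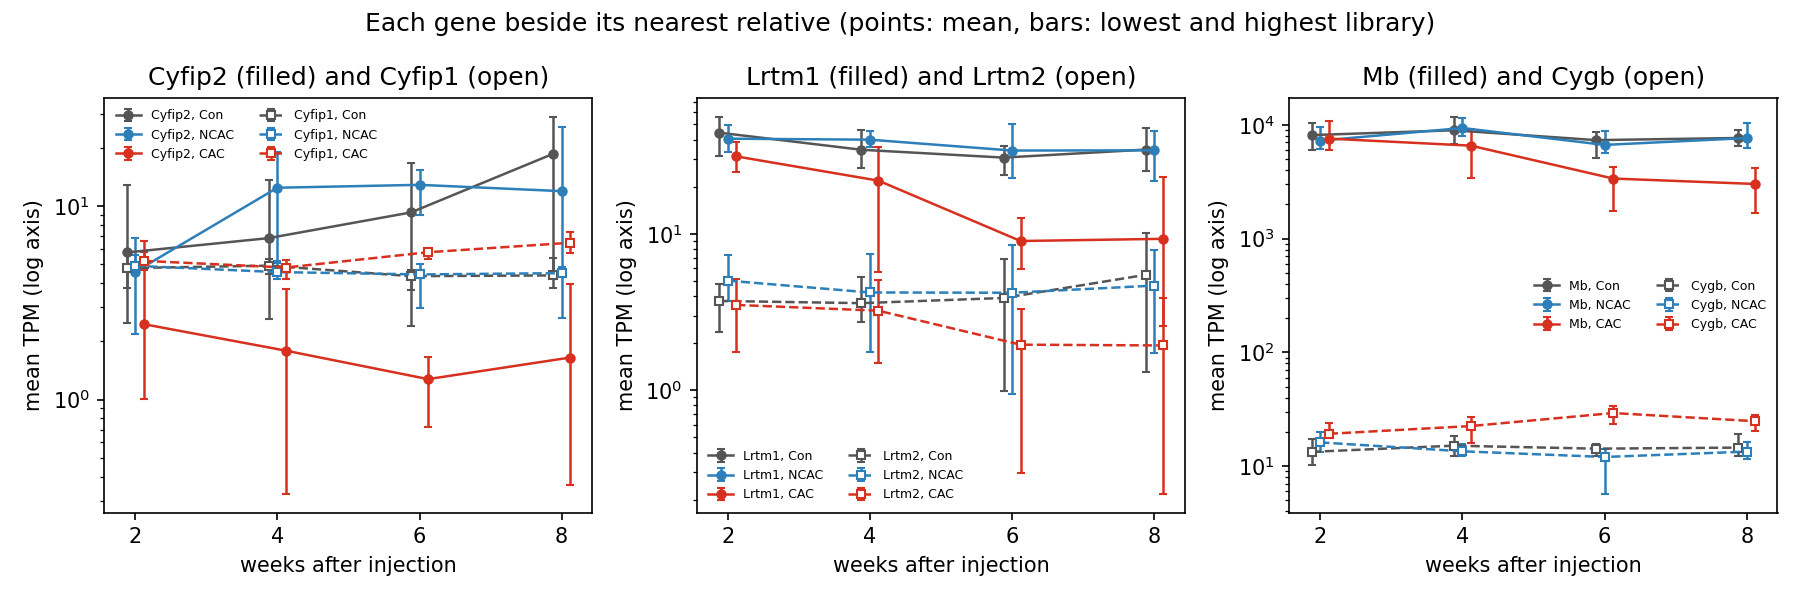
Mean TPM on log axes against weeks for Cyfip2 and Cyfip1, Lrtm1 and Lrtm2, and Mb and Cygb, with filled symbols and solid lines for the first gene of each pair, open symbols and dashed lines for the second, bars from the lowest to the highest library, and grey, blue and red for Con, NCAC and CAC. At 8 weeks CAC muscle held 1.65 TPM of Cyfip2 and 6.47 TPM of Cyfip1, and Con muscle 18.6 and 4.38 TPM.

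Neighbouring genes gave no common direction as deposited. After rescaling every neighbour tested was lower in CAC than in Con at 8 weeks, from -0.04 for 1110038F14Rik to -1.80 for Apol6 (limma adjusted p = 1.58e-06). Of all genes, 24.2% were then called lower and 24.9% higher. Apol6 overlaps Mb on the opposite strand with 64 shared exon bases and fell from 19.3 ± 7.76 TPM in Con to 7.41 ± 4.15 TPM in CAC at 8 weeks, by 1.37 on the log2 scale (SE 0.28, limma adjusted p = 3.6e-05). The library kit marks strand, but how the authors counted is not given in the sources used here. If strand was not used, reads of Mb and Apol6 in the shared bases cannot be told apart. Rbfox2, next to Mb on the other side, was at 28.2 ± 12.6 TPM and 29.2 ± 4.45 TPM (log2 difference -0.15, limma adjusted p = 0.495), and at -0.64 after rescaling (adjusted p = 0.00466). The gene 1110038F14Rik rose by 0.45 as deposited (limma adjusted p = 4.89e-05), and was at -0.04 after rescaling (adjusted p = 0.669). Wnt5a, the next gene before Lrtm1, fell by 0.48 (SE 0.17, limma adjusted p = 0.00981). Its call was lost in a fit of the compared groups alone (adjusted p = 0.0944) and kept after rescaling (-0.70, adjusted p = 0.000198). Cacna2d3, around Lrtm1, averaged 0.279 TPM over all libraries. Of the genes beside Nrep, Stard4 differed by 0.24 (limma adjusted p = 0.0929) and Epb41l4a by -0.09 (adjusted p = 0.47). Stard4 was called without Con replicate 2 or CAC replicate 7 (0.30 in either case, lowest adjusted p = 0.0388). After rescaling Stard4 was at -0.10 (adjusted p = 0.491), and Epb41l4a was called, at -0.42 (adjusted p = 0.0012).

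Other genes around the 4 were followed in 8 lists that do not hold the 4 genes, in CAC against Con at 8 weeks. Counts are of genes called by limma, as deposited and then after rescaling, to be read against 69.4% higher and 5.09% lower among all genes as deposited and 24.9% and 24.2% after rescaling. For all genes the median log2 difference was 0.46 and then 0.02. In NCAC against Con over all weeks none of the list genes was called. Bulk RNA cannot tell fewer cells of a type from less RNA per cell, which holds for the 4 genes too.

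The WAVE complex and Rac signalling to actin, the setting of Cyfip2, had 22 of 27 tested genes higher and 0 lower, with a median log2 difference of 0.63. After rescaling 9 were higher and 3 lower, with a median of 0.13. Wasf2, a WAVE subunit, went from 9.002 ± 0.589 TPM in Con to 21.2 ± 5.83 TPM in CAC (1.11, limma adjusted p = 2.2e-09). Arpc1b, a subunit of the Arp2/3 complex, rose by 1.16 (adjusted p = 2.97e-11), Arpc5 by 0.87 (adjusted p = 3.2e-11) and Abi3 by 1.00 (adjusted p = 1.29e-08). All 4 of these also rose after rescaling. The 3 genes called lower after rescaling, named after their values were seen, were Arpc5l, the actin-binding Pfn1 and the RNA-binding Fxr1.

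Globins and the genes of haem synthesis and breakdown, the setting of Mb, had 8 of 19 higher and 2 lower (median 0.18), and 3 higher and 11 lower after rescaling (median -0.32). The 2 lower as deposited were Alas1, the first enzyme of haem synthesis outside blood, and Alad, which follows it. Alas1 went from 67.6 ± 12.97 TPM in Con to 33.2 ± 12.9 TPM in CAC, a fall of 1.06 on the log2 scale (SE 0.17, limma adjusted p = 5.03e-07). Pgrmc1 rose by 0.86 (adjusted p = 2.67e-07) and Blvrb, a biliverdin reductase, by 0.73 (adjusted p = 1.01e-06), both also after rescaling. Hmox2, a haem oxygenase, rose by 0.43 as deposited (adjusted p = 5.01e-07) and was at -0.07 after rescaling (adjusted p = 0.401).

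Slow and oxidative fibre genes, to which Mb is usually counted, had 6 of 20 higher and 5 lower (median 0.32), and 4 higher and 5 lower after rescaling (median -0.11). The 5 lower genes were the same in both: Ckmt2, Cox7a1, Fabp3, Myl3 and Myh2, named after their values were seen. Ckmt2 fell by 1.44 (limma adjusted p = 2.93e-07) and Cox7a1 from 1063 ± 109 TPM to 595 ± 120 TPM, by 0.85 (adjusted p = 9.46e-08). Sln, the sarcolipin that inhibits the calcium pump, went the other way from 2.63 ± 1.55 TPM to 33.1 ± 23.3 TPM (3.07, adjusted p = 1.12e-08), and Cd36, a fatty acid transporter, rose by 1.05 (adjusted p = 4.43e-07).

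Fast glycolytic fibre genes had 4 of 20 higher and 7 lower (median -0.03), and 0 higher and 12 lower after rescaling (median -0.55). Without CAC replicate 1 of 8 weeks 4 were lower, as with the replicate number as a block, and 3 in a fit of the compared groups alone. Casq1, the calcium store protein of fast fibres, went from 2156 ± 519 TPM to 1022 ± 803 TPM, a fall of 1.68 (SE 0.42, limma adjusted p = 0.000367). Myoz1 rose by 0.74 (adjusted p = 2.41e-06), Atp2a1, the calcium pump of fast fibres, by 0.68 (adjusted p = 0.000895) and Tnni2, a fast troponin, by 0.36 (adjusted p = 0.000174). After rescaling none of these 3 was called (adjusted p = 0.0789, 0.339 and 0.0779), and Tnni2 changed sign to -0.16.

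Regulators of oxidative muscle genes had 14 of 28 higher and 3 lower (median 0.28), and 4 higher and 13 lower after rescaling (median -0.23). The 3 lower as deposited, named after their values were seen, were Mef2c, Ppargc1b and Esrra, known activators of mitochondrial and muscle genes. In a fit of the compared groups alone 0 genes of the list were called lower by limma, and with the replicate number as a block 1 was. Hif1a, the oxygen-sensing factor, rose by 1.096 (limma adjusted p = 4.26e-11), Nrf1 by 0.79 (adjusted p = 5.62e-09), Sp1 by 0.97 (adjusted p = 3.1e-07) and Ppard by 0.95 (adjusted p = 4.12e-06), and all 4 of these also rose after rescaling.

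Ligands, receptors and targets of TGF-beta, the setting in which Nrep has been placed, had 17 of 21 higher and 1 lower (median 0.69), and 12 higher and 2 lower after rescaling (median 0.20). Tgfbr3 went from 3.68 ± 0.693 TPM to 14.2 ± 3.76 TPM (1.67, limma adjusted p = 5.58e-12) and Tgfbr2 from 10.3 ± 1.71 TPM to 32.4 ± 10.3 TPM (1.52, adjusted p = 1.92e-10). The target Tagln rose by 1.79 (adjusted p = 5.56e-11) and the latency protein Ltbp1 by 0.52 (adjusted p = 3.63e-07), and all 4 of these also rose after rescaling. Tagln and Acta2 of this list are smooth muscle and pericyte markers too, whose summed level was 167 to 256 TPM in Con and 341 to 444 TPM in CAC, and the part of these cells in the list's counts was not tested. Tgfb2, a ligand, was the 1 gene lower as deposited (log2 difference -0.89).

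Leucine-rich repeat proteins of muscle, the family of Lrtm1, had 12 of 22 higher and 4 lower (median 0.42), and 4 higher and 7 lower after rescaling (median -0.05). Amigo3 went from 5.07 ± 1.88 TPM to 1.33 ± 0.794 TPM, a fall of 1.39 (SE 0.23, limma adjusted p = 1.08e-06). Lrrc30, a repeat protein of skeletal muscle, went from 40.5 ± 10.8 TPM to 231 ± 170 TPM (2.17, adjusted p = 7.86e-06). Amigo2 rose by 1.47 (adjusted p = 2.76e-09) and Slit3, a guidance ligand, by 1.09 (adjusted p = 4.14e-08). The other 3 lower genes, named after their values were seen, were Lrtm2, Lrrc38 and Lrrc39.

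Genes of regeneration and denervation had 5 of 15 higher and 2 lower (median 0.20), and 1 higher and 3 lower after rescaling (median -0.15). In a fit of the compared groups alone 1 was lower. Actc1 went from 134 ± 145 TPM in Con to 8.32 ± 6.67 TPM in CAC, a fall of 3.65 (SE 0.52, limma adjusted p = 4.92e-08). Chrna1, a subunit of the acetylcholine receptor that rises in denervated muscle, rose by 0.86 (adjusted p = 6.16e-06) and was the 1 gene higher after rescaling. Myf6 and Cdh15 rose by 0.86 and 0.74 as deposited (limma adjusted p = 8.08e-05 and 0.000403), with adjusted p = 0.121 and 0.129 after rescaling.

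**Figure D5:**
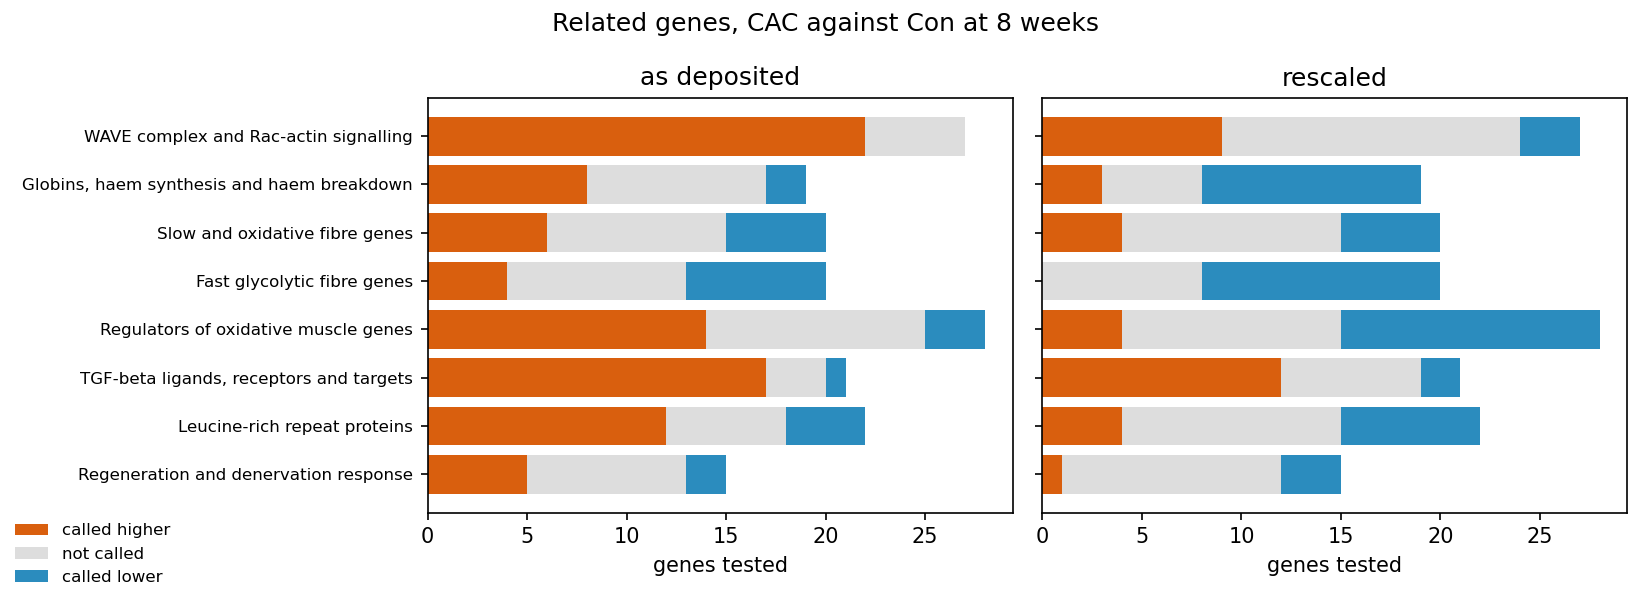
Number of tested genes called higher (orange), not called (grey) and called lower (blue) in CAC against Con at 8 weeks in each of 8 lists, as deposited (left) and after rescaling (right). Fewer genes are called higher in every list after rescaling, and 12 of 20 fast glycolytic fibre genes are then called lower.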

How the data were processed

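RNA of mouse tibialis anterior was measured in 62 libraries, from a strand-marking mRNA kit sequenced on NovaSeq, as stated per the labels' protocols. What the authors deposited is TPM for 47643 gene symbols, each column summing to 1000000, on build mm10 per the submitters' processing notes; aligner, counter and annotation were not given in the sources used here. TPM keeps no depth, so reads per library were estimated with GENCODE M21 exon lengths from how low values step (83.3% to 85.9% of values between 0.5 and 5 reads were whole within 0.05) and used only as a guide. Columns were matched to samples by title, and 0 were left unmapped.

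The 11107 genes averaging 1 TPM or more were fitted as log2(TPM + 1) with limma 3.58.1 in R 4.3.3, with a mean per group over all 62 libraries, a mean-variance trend and 50 residual degrees of freedom. There were 16 contrasts, each with Benjamini-Hochberg adjustment over all genes and a threshold of 0.05. This scale understates changes of weak genes. SD is over libraries and ratios are of mean TPM. Two-sided tests were used throughout. The fit was tested on simulated data. The 4 genes, the lists and the tests were chosen with earlier results of these data known. Named genes are the 4, the nearest relatives, the neighbours and up to 4 called members per list with the smallest adjusted p. Added to them are, for each of the 4, the 5 genes with the highest r. That ranking took genes averaging 5 TPM or more, without the 4 genes, mitochondrially encoded genes and predicted, clone or pseudogene symbols. Rescaling used median-of-ratios size factors (0.614 to 1.47). Other alternatives were a pseudocount of 0.1, no filter, the compared groups alone, the replicate number as a block and each library left out. A fit without mitochondrially encoded genes was added after seeing the data. Positions are from GENCODE M21 (GRCm38) and start-site sequences from RefSeq, taken for 3 of the 4 genes. Windows on chromosome 18, which holds Nrep, were left out. Plots and summaries used matplotlib 3.10.9, pandas 2.3.3, numpy 2.4.6 and Python 3.11.15.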

Additional observations from a re-analysis of the deposited data

Results flagged for a closer look

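In 48 groups of 5 or 7 libraries, 4 genes by 12 groups, 3 held a library whose gap to the rest was large for its group, and chance gives about 1 in 20 groups. Cyfip2 stood at 6.61 TPM in CAC replicate 1 at 2 weeks, and the other 4 libraries lay between 1.00 and 1.77 TPM. Mb stood at 9481 TPM in NCAC replicate 2 at 2 weeks, with the others between 6130 and 7028 TPM. Mb also stood at 10793 TPM in CAC replicate 2 at 2 weeks, with the others between 6021 and 7300 TPM. All 3 were in muscles of 2 weeks.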

How the results depend on the processing

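None of the 4 genes changed direction against Con at 4, 6 or 8 weeks under any alternative run. The 5 comparisons tested on the 4 genes gave 0 calls under every alternative, except that Cyfip2 was called between 8 and 2 weeks in Con without Con replicate 4 of 8 weeks, so leaving out 1 library gave 0 to 1 calls there. Replicate numbers did not pair the libraries: correlations of same-numbered deviations lay between -0.332 and 0.332. With the replicate number as a block 0 of the 4 genes were called in each tested comparison, 4 fast glycolytic genes and 1 regulator of oxidative genes were lower, and no other count of a list moved by over 1.5 times.

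After rescaling, genes higher at 8 weeks numbered 9 in the WAVE list, 3 in the haem list, 0 among fast fibre genes, 4 among oxidative regulators, 4 among leucine-rich repeat proteins and 1 in regeneration. Genes lower numbered 3, 11, 12, 13 and 7 in the first 5 of these lists and 2 for TGF-beta. Without mitochondrially encoded genes, 9 haem genes were lower, 8 regulators were higher and 8 lower, and 7 leucine-rich repeat genes were higher. With the compared groups alone, 3 fast fibre genes, 0 regulators and 1 regeneration gene were lower. Leaving out 1 library gave 4 to 8 lower fast fibre genes, 4 without CAC replicate 1. Rescaling turned Hmox2 to -0.069, Tnni2 to -0.163 and 1110038F14Rik to -0.043. The number of all genes called at 2 weeks in CAC against Con was 6, and 12 after rescaling or without a filter, 32 without mitochondrially encoded genes and 0 with the compared groups alone. For 8 against 2 weeks in Con it was 30, and 188, 59 and 0 without a filter, without mitochondrially encoded genes and with the compared groups alone. For 8 against 2 weeks in NCAC it was 0, and 2 after rescaling. At 6 and 8 weeks in CAC against Con it was 7103 and 8272, and 3886 and 5451 after rescaling. Leaving out 1 library gave 2 to 37 calls in CAC against Con and 2 to 11 in CAC against NCAC at 2 weeks, 0 to 43 over time in Con and 0 to 3 in NCAC. The highest of these came without Con replicate 3 and CAC replicate 1 of 2 weeks in the first 2 comparisons, and the 0 in Con without its replicate 1 of 2 weeks. That Con library held 1196 TPM of the liver transcript Alb (albumin), and the others of its group 1.37 to 194 TPM. The cause of these counts was not tested.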
